A study of Mus musculus with 18 samples.

Results

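The kinesins are motor proteins that hydrolyse ATP to walk along microtubules or to take microtubule ends apart. One part of the family builds the mitotic spindle, moves chromosomes on it and parts the daughter cells at cytokinesis. Another part carries vesicles, mitochondria and protein complexes along axons and dendrites, and a smaller part serves cilia. Cerebellar granule neuron progenitors (CGNP) divide in the external granule layer of the newborn cerebellum under Sonic hedgehog (SHH) and then leave the cell cycle to become granule neurons (CGN) with long parallel fibre axons, so that both sets of motors are at work in one lineage. Kinesin genes were taken by symbol (Kif or Kifc followed by a number and, where present, a letter), and 41 of the 22180 genes measured fitted this pattern. By role, 13 were grouped as mitotic kinesins, 9 as axonal transport kinesins, 8 as kinesins of dendritic and other membrane cargo, 6 as ciliary and Hedgehog kinesins and 5 as others. The grouping is a choice: *Kif2a* and *Kif2b*, relatives of the mitotic *Kif2c*, were placed among the others. Where a gene had several transcript clusters, which was so for *Kif5b*, *Kif7* and *Kif27*, the brightest one stood for it.

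RNA was measured on 18 Affymetrix arrays of mouse material, of which 16 were compared. Whole cerebella came from C57BL6/J mice at P3, 3 of them *Dot1l*-cKO (*Dot1l* f/f, *Atoh1* cre/+) and 3 control (*Dot1l* f/f, *Atoh1* +/+). The description of control replicate 3 gives *Dot1l* f/+ where its title gives f/f. DOT1L is a histone H3 lysine methyltransferase, and *Atoh1*-Cre is active in granule cell progenitors, and the cKO mice carry a Cre allele of *Atoh1* that the controls lack. A whole cerebellum also contains Purkinje cells, interneurons and glia. CGNP of NMRI mice, P7 by the labels, were cultured with SHH and exposed on day 1 in vitro for 4 h to the DOT1L inhibitor SGC0946 (3 cultures) or to DMSO (3 cultures). In each of these groups 1 culture came from mouse 29, 1 from mouse 30 and 1 from both pooled, so that the 3 cultures stand for 2 mice. CGN were cultured with serum and exposed for 44 h to SGC0946 (2 cultures, labelled 5 and 7 days in vitro and P7 and P9) or to DMSO (2 cultures, labelled 2 and 4 days in vitro and P7). By these labels days in culture go with treatment in CGN and cannot be told apart from it. The labelled days rise with the array number, and the authors' methods give CGN the inhibitor 4 h after plating for 44 h. Labels of up to 7 days do not match that, and whether they hold is not known here. The labels of 2 further CGN arrays, HB2 and HB5, name opposite treatments in title and description, and these arrays entered no comparison. Nothing in the labels says how the litters of the cerebella were related, and p-values measure the spread between these samples.

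All values are log2 signals, so that a difference of 1 is a 2-fold difference. They appeared to have been normalized separately in cerebella, CGNP and CGN. Groups were compared within an experiment with limma, and p-values were adjusted over all 22180 genes (Benjamini-Hochberg, passed below 0.05). By this test 5 genes passed in *Dot1l*-cKO cerebella, 7 in CGNP and 34 in CGN. *Dot1l* itself read 9.24, 9.43 and 9.01 in cKO, against 9.05, 9.13 and 9.05 in control cerebella. This cluster was not lower on the cKO arrays (log2 change 0.15, standard error 0.13), and since it is not known here whether its probes lie in the deleted part, it does not check the deletion. Of the granule cell markers, *Barhl1* and *Pax6* lay above the array median of the 22180 genes on all 16 arrays and *Atoh1* below it on 5. The dividing cell markers *Mki67* and *Top2a* were lower on every DMSO array of CGN than on any of CGNP.

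Promoter sequences were printed because the mitotic kinesins shared letters in them that the grouping by role had not used. RefSeq promoter windows of GRCm38.p6, from 250 bases before an annotated start site to 50 after it, were found for 33 of the 41 kinesins. The cell cycle genes homology region (CHR), through which the DREAM and B-MYB complexes act on many genes of G2 and mitosis, was searched as TTTGAA or, read on the other strand, TTCAAA. The box bound by NF-Y was searched as CCAAT or, read on the other strand, ATTGG. A CHR match stood in the windows of 11 of 12 mitotic kinesins, of 1 of 7 axonal, 0 of 4 cargo, 1 of 5 ciliary and 1 of 5 other kinesins, against 20.2% of 27025 genes with a window. *Kif18a* was the mitotic kinesin without one, and *Kif2a* and *Kif2b*, grouped as others, held none. Within 50 bases of that start site a match was found in 9 of 12 mitotic and 1 of 7 axonal kinesins and in 5.72% of all genes. CCAAT was present in 8 of 12 mitotic and 3 of 7 axonal kinesins, against 41.1% of all genes. *Kif18a* and *Kif5c* held neither motif. The 5 windows below run 5′ to 3′ on the strand of the gene, and capitals mark matches to either motif on either strand: *Kif23* (chr9:61946750-61947049, minus strand), *Kif20b* (chr19:34922108-34922407, plus strand) and *Kif11* (chr19:37376132-37376431, plus strand) are shown for the 3 mitotic kinesins with the smallest p in cKO cerebella, *Kif18a* (chr2:109280488-109280787, plus strand) as the exception among mitotic kinesins, and *Kif5c* (chr2:49619036-49619335, plus strand) as an axonal transport kinesin.
Kif23: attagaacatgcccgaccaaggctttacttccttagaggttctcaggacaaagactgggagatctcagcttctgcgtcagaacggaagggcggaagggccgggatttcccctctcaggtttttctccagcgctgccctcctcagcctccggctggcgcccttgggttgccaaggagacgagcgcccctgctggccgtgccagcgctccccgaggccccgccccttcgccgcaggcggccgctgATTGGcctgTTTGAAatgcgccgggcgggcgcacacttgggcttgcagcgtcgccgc
Kif20b: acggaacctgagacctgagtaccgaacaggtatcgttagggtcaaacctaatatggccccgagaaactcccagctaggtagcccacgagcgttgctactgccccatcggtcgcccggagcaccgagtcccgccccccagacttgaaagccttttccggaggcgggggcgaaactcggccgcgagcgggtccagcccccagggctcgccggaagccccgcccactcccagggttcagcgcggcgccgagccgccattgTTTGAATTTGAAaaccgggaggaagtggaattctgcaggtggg
Kif11: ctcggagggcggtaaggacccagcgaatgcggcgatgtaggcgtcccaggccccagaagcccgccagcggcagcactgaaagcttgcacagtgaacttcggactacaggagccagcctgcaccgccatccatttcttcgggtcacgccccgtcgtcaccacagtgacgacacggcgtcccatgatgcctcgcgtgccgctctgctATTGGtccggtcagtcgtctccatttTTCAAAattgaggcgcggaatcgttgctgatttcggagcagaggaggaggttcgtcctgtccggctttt
Kif18a: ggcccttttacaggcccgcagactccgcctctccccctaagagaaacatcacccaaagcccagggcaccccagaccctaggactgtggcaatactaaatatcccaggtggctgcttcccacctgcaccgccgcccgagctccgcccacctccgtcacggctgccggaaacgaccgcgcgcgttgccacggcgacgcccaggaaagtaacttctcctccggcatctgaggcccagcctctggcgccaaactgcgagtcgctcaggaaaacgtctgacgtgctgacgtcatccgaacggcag
Kif5c: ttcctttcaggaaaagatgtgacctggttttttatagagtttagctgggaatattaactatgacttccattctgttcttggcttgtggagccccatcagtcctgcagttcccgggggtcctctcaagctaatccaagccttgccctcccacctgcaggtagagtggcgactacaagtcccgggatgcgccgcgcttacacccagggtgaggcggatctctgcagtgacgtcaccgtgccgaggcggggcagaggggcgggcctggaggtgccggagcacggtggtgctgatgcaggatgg
In *Kif23* the CHR letters began at position 3 after the gene start, in *Kif20b* at 8 and again at 14, and in *Kif11* at position -19, counted from 1 at the start site of the window. That site is 1 annotated start and need not be the 5′ end of the annotated gene span: it was so for 6 of the 12 mitotic kinesins with a window, *Kif11* and *Kif18a* among them, while that of *Kif20b* lay 23, that of *Kif23* 11 and that of *Kif2c* 3852 bases inside the span. These matches are letters in a window, and binding was not measured on these arrays.

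The first comparison asked what loss of DOT1L in the granule cell lineage did to the kinesins at P3. All 13 mitotic kinesins had lower means in *Dot1l*-cKO than in control cerebella, with a median log2 change of -0.40, against -0.01 over all genes, 52.1% of which had lower means. None passed the test over all genes, as was true of all but 0.0225% of genes. At an unadjusted p of at most 0.05, 8 of the 13 were lower, against 4.60% of all genes, and for 8 of the 13 the cKO arrays lay below every control array, against 7.75% of all genes. The axonal transport kinesins did not share this: 7 of 9 had higher means, against 47.9% of all genes, their median was 0.10, and 0 of 9 reached an unadjusted p of 0.05, against 8.69% of all genes in either direction (limma over all genes, smallest adjusted p = 0.642). In whole tissue, fewer dividing cells and less RNA per dividing cell cannot be told apart. The mitotic counts depend on the grouping: *Kif2a*, placed among the others, had a mean of 9.62 in both cKO and control cerebella (log2 change -0.00082). *Kif2b*, also among the others and dim on every array, differed by -0.08.

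*Kif23* encodes MKLP1, which with RACGAP1 forms centralspindlin and bundles the central spindle. It read 8.78, 8.88 and 8.73 in cKO cerebella, against 9.44, 9.54 and 9.49 in control cerebella. The 2 groups were far apart for the spread within them (log2 change -0.69, standard error 0.11, 1.61-fold lower), and this was the smallest p among the kinesins (limma, unadjusted p = 5.2e-05, adjusted p = 0.083). *Kif20b*, whose motor MPP1 acts in abscission of the daughter cells, read 7.84, 7.46 and 7.74 in cKO, against 8.32, 8.38 and 8.43 in control cerebella. Its change of -0.69 (standard error 0.15) had an adjusted p of 0.220 in limma. *Kif20a* encodes MKLP2, which brings the chromosomal passenger complex to the midzone. It read 8.68, 9.0 and 8.47 in cKO and 9.11, 9.24 and 9.08 in control cerebella, with no overlap, a change of -0.43 (standard error 0.15). *Kif14*, a partner of citron kinase in cytokinesis, had overlapping groups (-0.39, standard error 0.20).

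Motors that shape the spindle were lower as well. *Kif11* encodes Eg5, the tetrameric motor that pushes spindle poles apart. It read 9.82, 10.07 and 9.76 in cKO, against 10.44, 10.35 and 10.43 in control cerebella (-0.52 on the log2 scale, standard error 0.11, limma adjusted p = 0.219). *Kif15*, which can take over from Eg5 once a spindle is bipolar, read 8.58, 8.82 and 8.62 in cKO and 8.84, 9.09 and 9.11 in control cerebella, a change of -0.34 (standard error 0.13). For both genes every cKO cerebellum was below every control. *Kifc1*, a minus end directed motor that gathers spindle poles, had the most uneven cKO values of all mitotic kinesins, at 6.71, 6.87 and 5.64 against 7.30, 6.97 and 6.66 in control cerebella, and the groups overlapped. *Kifc5b*, a near-identical relative of *Kifc1* whose probes may read both, was dim on every array and differed by -0.05 (standard error 0.23).

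The depolymerases and chromosome motors followed the same direction. *Kif2c* encodes MCAK, which removes wrong attachments at the centromere, and read 9.20, 9.14 and 8.60 in cKO, against 9.61, 9.28 and 9.25 in control cerebella (-0.40 on the log2 scale, standard error 0.17). *Kif18a*, a kinesin-8 that damps the oscillation of chromosomes at the metaphase plate, read 8.40, 8.39 and 8.29 in cKO and 8.57, 9.08 and 8.80 in control cerebella (-0.45, standard error 0.15). *Kif18b*, which shortens astral microtubules, read 8.39, 8.56 and 8.26 in cKO and 8.77, 8.58 and 8.69 in control cerebella (-0.28, standard error 0.13). In these 3 the groups did not overlap, though the nearest arrays of *Kif18b* were 0.02 apart. The chromokinesin *Kif4* read 8.27, 7.84 and 8.0 in cKO and 8.69, 8.14 and 8.48 in control cerebella, so that 1 cKO cerebellum lay above 1 control (-0.40, standard error 0.17). *Kif22*, which pushes chromosome arms from the poles, also overlapped (-0.37, standard error 0.18).

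**Figure D1:**
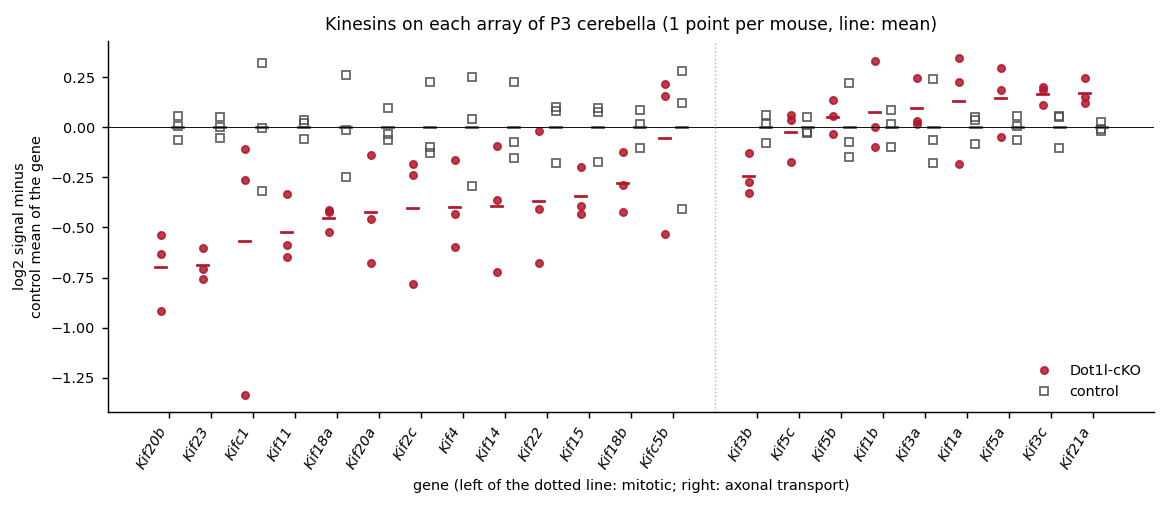
Log2 signal of each mitotic and axonal transport kinesin on every array of P3 cerebella, minus the mean of the 3 control arrays of that gene (filled circles: cKO; open squares: control; lines: means; n = 3 mice each). Apart from *Kifc5b*, every mitotic kinesin has all 3 cKO values below the control mean, and the axonal transport kinesins lie between -0.33 and 0.35.

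One cKO mouse weighed on these values. Replicate 3 held the lowest cKO value for 9 of 13 mitotic kinesins, and the median deviation of the 13 genes from the control mean was -0.41, -0.24 and -0.65 in cKO replicates 1 to 3, against 0.04, 0.05 and -0.01 in the controls. Without cKO replicate 3 the median change was -0.30 and 4 mitotic kinesins remained at an unadjusted p of at most 0.05, and without control replicate 2 the number was 5. *Kif23*, *Kif20b* and *Kif11* stayed at that cut-off without any 1 of the 6 mice.

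Among axonal transport kinesins, *Kif3b*, which with *Kif3a* forms the heterotrimeric kinesin-2 of axons and cilia, read 8.11, 7.96 and 7.91 in cKO, against 8.30, 8.25 and 8.16 in control cerebella (-0.24 on the log2 scale, standard error 0.13). It was the only axonal member with all cKO arrays below all controls. *Kif3c*, a neuronal kinesin-2 subunit, read 9.60, 9.59 and 9.51 in cKO and 9.45, 9.45 and 9.29 in control cerebella (0.17, standard error 0.11). *Kif21a*, which slows microtubule growth, read 9.55, 9.68 and 9.58 in cKO and 9.42, 9.42 and 9.46 in control cerebella (0.17, standard error 0.10). These 2 did not overlap in the other direction, as did 6.28% of all genes. The heavy chains of conventional kinesin *Kif5a*, *Kif5b* and *Kif5c* differed by 0.15, 0.05 and -0.02, and the carriers of synaptic vesicle precursors *Kif1a* and *Kif1b* by 0.13 and 0.08, each with overlapping groups. The median of the 9 axonal transport kinesins was 0.015 once each array's own median was subtracted, which shifted the median of all genes by -0.083, and 0.023 without cKO replicate 3. The other 19 kinesins had log2 changes of -0.25 to 0.33, all with overlapping groups, *Kifc2*, a minus end directed motor of neurons, being the highest and *Kif7*, which controls GLI factors at the tip of the cilium, the lowest.

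**Figure D2:**
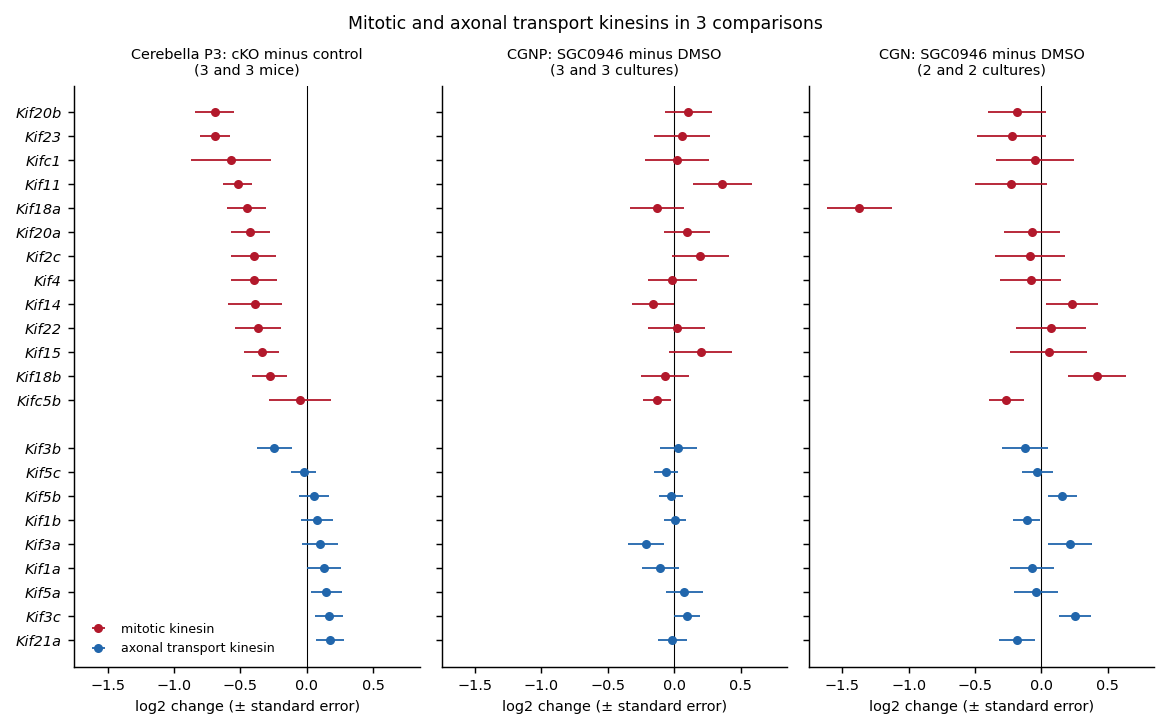
Log2 change (points) with its limma standard error (bars) of 13 mitotic and 9 axonal transport kinesins in cKO minus control cerebella (n = 3 each), SGC0946 minus DMSO in CGNP (n = 3 each) and SGC0946 minus DMSO in CGN (n = 2 each). Mitotic kinesins lie below 0 in cerebella, around 0 in CGNP, and around 0 in CGN except *Kif18a* at -1.37.

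Genes of proteins that work with the mitotic motors had lower means too. All 12 mitotic partners had lower means in cKO, against 52.1% of all genes, 8 of them at an unadjusted p of at most 0.05, against 4.60% of all genes, with a median of -0.47. The smallest p belonged to *Tpx2*, the activator of Aurora A on the spindle, at -0.62 (limma adjusted p = 0.101), followed by the centromere kinesin *Cenpe*, which the symbol rule did not take, at -0.56, *Cdca8* of the chromosomal passenger complex at -0.68 and its subunit *Birc5* at -0.48. The 13 measured light chains and adaptors of cargo kinesins had a median of -0.01, with 1 higher and 1 lower at that cut-off, against 8.69% of all genes in either direction. These were *Kifbp*, a binding protein that restrains KIF1 motors, at 0.45 (unadjusted p = 0.013, adjusted p = 0.464 in limma) and the mitochondrial adaptor *Trak2* at -0.34. Markers of cell types differed as well. Of the granule lineage markers 7 of 8 had lower means in cKO (*Atoh1* -0.79, *Pax6* -0.57, *Barhl1* -0.55), against 52.1% of all genes. The cKO mice carry a Cre allele of *Atoh1*. *Rbfox3* hardly differed (9.877 in cKO, 9.884 in control) and *Gabra6* was higher (5.10 against 4.83). Dividing cell markers had lower means in 3 of 3 (*Top2a* -0.36, *Ccnd2* -0.35, *Mki67* -0.24). Higher means, as in 47.9% of all genes, were found for 4 of 4 interneuron markers (*Pax2* 1.14, *Sst* 1.01). The same held for 4 of 5 oligodendrocyte, 4 of 4 microglial and 5 of 5 mural and fibroblast markers, in *Aif1* by little (4.92 against 4.90). Measured Purkinje cell markers all had lower means, and astroglial and endothelial ones went both ways. The mean signal of the granule list was 8.64 to 8.68 in cKO and 8.87 to 8.99 in control cerebella. Ranges overlapped for the Purkinje (10.94 to 11.01 in cKO, 10.94 to 11.23 in control) and the mural and fibroblast list (7.53 to 8.04 and 7.45 to 7.89). They also did for the astroglial (10.52 to 10.86 and 10.29 to 10.66) and endothelial list (8.15 to 8.41 and 8.09 to 8.41). The part of these cell types in the kinesin values was not tested.

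In CGNP, 4 h of SGC0946 was compared with DMSO to ask how the motors responded soon after DOT1L inhibition in dividing progenitors. No kinesin passed the test, as was true of all but 0.0316% of genes, and 0 of 41 reached an unadjusted p of 0.05, against 4.08% of all genes. The mitotic kinesins had a median log2 change of 0.02, with 8 of 13 means higher, against 51.3% of all genes, and the axonal transport kinesins of -0.01. *Kif11* was the mitotic member with the largest difference, at 7.60, 7.90 and 8.08 with SGC0946, against 7.73, 6.97 and 7.79 with DMSO (0.36, standard error 0.22). Its groups overlapped and 1 DMSO culture, replicate 2, stood low. *Kif23* read 7.78, 7.24 and 7.46 with SGC0946 and 7.44, 7.31 and 7.56 with DMSO, an overlap on both sides (0.06, standard error 0.21). In *Kif6* of motile cilia and in *Kif7* every SGC0946 array lay above every DMSO array, as in 5.30% of all genes, by 0.25 and 0.15, both at low signal. *Kif16b*, which moves early endosomes, had the lowest mean change (-0.36, standard error 0.20), at 5.71, 5.98 and 6.23 with SGC0946 and 6.68, 6.13 and 6.21 with DMSO, with overlap. Without DMSO replicate 1 it was -0.19. *Kifbp* read 8.07, 8.21 and 7.35 with SGC0946 in CGNP and 8.35, 8.40 and 8.47 with DMSO (-0.53, unadjusted p = 0.020, adjusted p = 1 in limma). Without SGC0946 replicate 3, at 7.35, the change was -0.27 (unadjusted p = 0.112). A median standard error of 0.144 over all genes limits what could be seen here, and a missed threshold does not show that the treatment left a gene as it was.

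The responses in cerebella and CGNP were compared directly in a fit of all 16 arrays. *Kif11* (-0.89, standard error 0.26), *Kif20b* (-0.80), *Kif23* (-0.75) and *Kif20a* (-0.52) had lower responses in cKO than in CGNP at an unadjusted p of at most 0.05, as did 3.60% of all genes. Their adjusted p in limma was 0.463 or more, where 0.0631% of all genes passed. Progenitors exposed for 4 h in culture and whole cerebella of mice with a deletion driven by *Atoh1*-Cre differ in time, cell mix and strain, and these cannot be told apart.

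**Figure D3:**
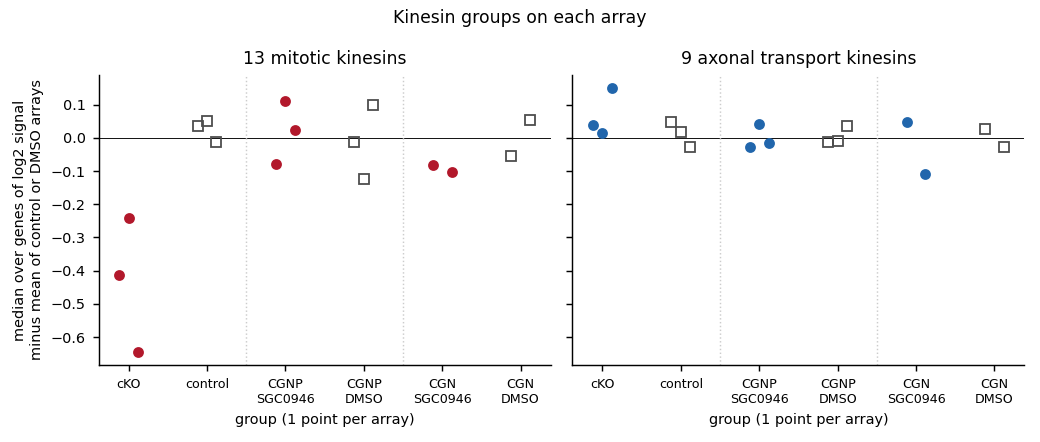
Median, over 13 mitotic (left) and 9 axonal transport kinesins (right), of log2 signal minus the mean of the control or DMSO arrays of the same experiment, 1 point per array (filled circles: cKO or SGC0946; open squares: control or DMSO). The 3 cKO cerebella lie at -0.24 to -0.65 for mitotic kinesins, and every other point of either panel lies between -0.12 and 0.15.

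In CGN, 44 h of SGC0946 was compared with DMSO. *Kif18a* was the only kinesin that passed, as 0.153% of all genes did. It read 5.76 and 5.54 with SGC0946, against 7.23 and 6.81 with DMSO, and thus fell by 1.37 on the log2 scale (standard error 0.25, 2.58-fold lower, limma adjusted p = 0.049, n = 2 each). The nearest arrays of the 2 groups were 1.05 apart. This call stood at the threshold: without any 1 of the 4 arrays the adjusted p was 0.0651 to 0.333, with ordinary variances 0.251, and with all 16 arrays in one fit 0.00878. The same gene differed by -0.13 (standard error 0.20) in CGNP, at 6.42, 6.65 and 6.17 with SGC0946 and 6.38, 6.42 and 6.83 with DMSO. The difference between both responses was -1.24 (unadjusted p = 0.0017, adjusted p = 0.649 in limma), one of 3.14% of genes lower at an unadjusted p of at most 0.05, and did not pass over all genes. The cKO response minus the CGN response was 0.92 (adjusted p = 0.241 in limma).

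The other 12 mitotic kinesins in CGN had log2 changes of -0.26 to 0.42, none at an unadjusted p of 0.05, against 7.48% of all genes. *Kif18b*, the other kinesin-8 of mitosis, was the highest, at 4.98 and 4.80 with SGC0946 against 4.42 and 4.52 with DMSO. *Kif14* (4.34 and 4.14 with SGC0946, 3.96 and 4.06 with DMSO) did not overlap either. *Kif11*, *Kif20b* and *Kifc5b* lay lower with SGC0946 without overlap, by -0.23, -0.18 and -0.26. Groups of 2 separate easily, and 17.0% of all genes did not overlap with higher and 17.1% with lower values.

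The 5′ end of *Kif18a* (chromosome 2, 109280738 to 109341749 in GRCm38.p6) shares 593 bases with the annotated span of its neighbour *Mettl15*, a mitochondrial rRNA methyltransferase gene looked up after the values of *Kif18a* were known. *Mettl15* read 4.56 and 5.29 with SGC0946 and 4.96 and 5.39 with DMSO, with overlapping groups (-0.25, standard error 0.32). Markers of other cell types differed between the groups in CGN as well. All 5 oligodendrocyte markers (*Olig2* -0.82, *Olig1* -0.73), all 5 mural and fibroblast markers (*Col1a1* -0.70, *Pdgfrb* -0.54) and all 4 astroglial markers had lower means with SGC0946, none past the test. Lower means were found for 11374 of 22180 genes. The mean signal of the oligodendrocyte list was 6.09 to 6.27 with SGC0946 and 6.66 to 6.72 with DMSO. The mural and fibroblast list (7.18 to 7.74 against 7.73 to 8.32) and the astroglial list (9.49 to 9.78 against 9.57 to 10.53) overlapped. Dividing cell markers did not share a direction (*Ccnd2* 0.35, *Top2a* 0.13, *Mki67* -0.21). The part of these cells and of days in culture, if the labels hold, in the *Kif18a* value was not tested.

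**Figure D4:**
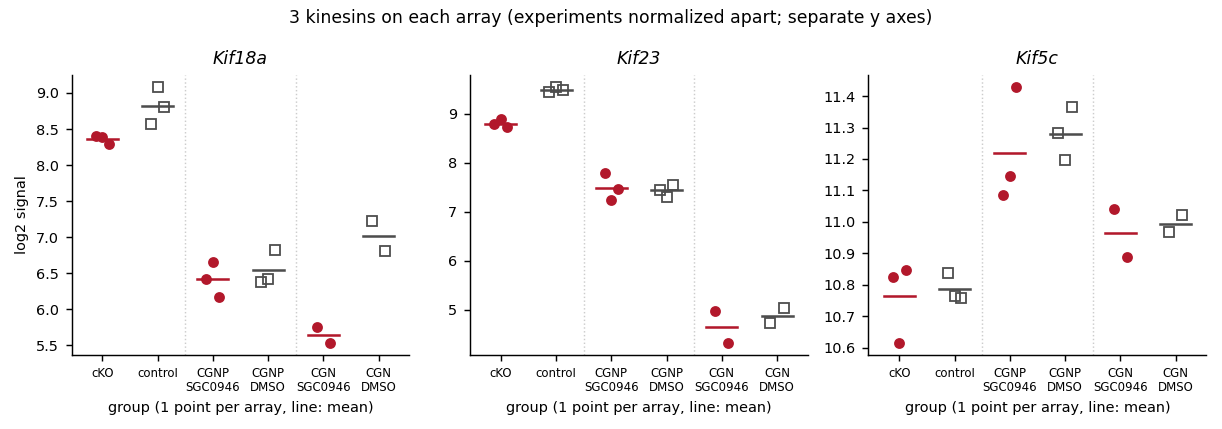
Log2 signal of *Kif18a*, *Kif23* and *Kif5c* on each of 16 arrays by group (filled circles: cKO or SGC0946; open squares: control or DMSO; lines: means). *Kif18a* separates in CGN, at 5.54 and 5.76 with SGC0946 against 6.81 and 7.23 with DMSO, and also in cerebella. *Kif23* separates in cerebella, and *Kif5c* overlaps in all 3 experiments. The 3 experiments were normalized apart, so heights are comparable within each pair of groups.

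Axonal transport kinesins in CGN had a median change of -0.04 with SGC0946, which ranged from -0.13 to 0.047 when 1 array was left out. *Kif3c* read 9.34 and 9.23 with SGC0946, against 9.01 and 9.06 with DMSO (0.25, standard error 0.12, unadjusted p = 0.057, limma adjusted p = 0.692). *Kif3a* (0.22) and *Kif5b* (0.16) were higher and *Kif21a* (-0.18) and *Kif1b* (-0.11) lower without overlap. Of all genes 17.0% separated higher and 17.1% lower. *Kif21b*, a dendritic and axonal motor that also limits microtubule growth, read 9.46 and 9.0 with SGC0946 and 8.98 and 8.93 with DMSO, 1 culture being apart from the other 3. Of the adaptors, *Trak2* read 9.68 and 8.94 with SGC0946 and 8.97 and 8.85 with DMSO. The groups overlapped, and the change of 0.40 (unadjusted p = 0.048, adjusted p = 0.664 in limma) was 0.038 without the SGC0946 culture at 9.68.

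The last comparison set CGN against CGNP, both with DMSO, to follow the motors through exit from the cell cycle. Because the experiments were normalized apart, levels are described with no test, and each difference is given as deposited and after quantile normalization of all culture arrays together. The median difference of all genes was -0.23 as deposited and -0.01 after joint normalization. A difference was counted where the groups did not overlap and the means were at least 2-fold apart. So counted, 11 of 13 mitotic kinesins were lower in CGN, against 11.2% of all genes, and 9 of 13 after joint normalization, against 4.30%. Of the 9 axonal transport kinesins 1 was lower by this count and none after joint normalization, and none was higher, against 2.75% of all genes. The median of the mitotic kinesins was -1.53 as deposited and -1.38 after joint normalization, that of the axonal ones -0.24 and 0.34, so that the sign of the second median depends on the normalization.

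**Figure D5:**
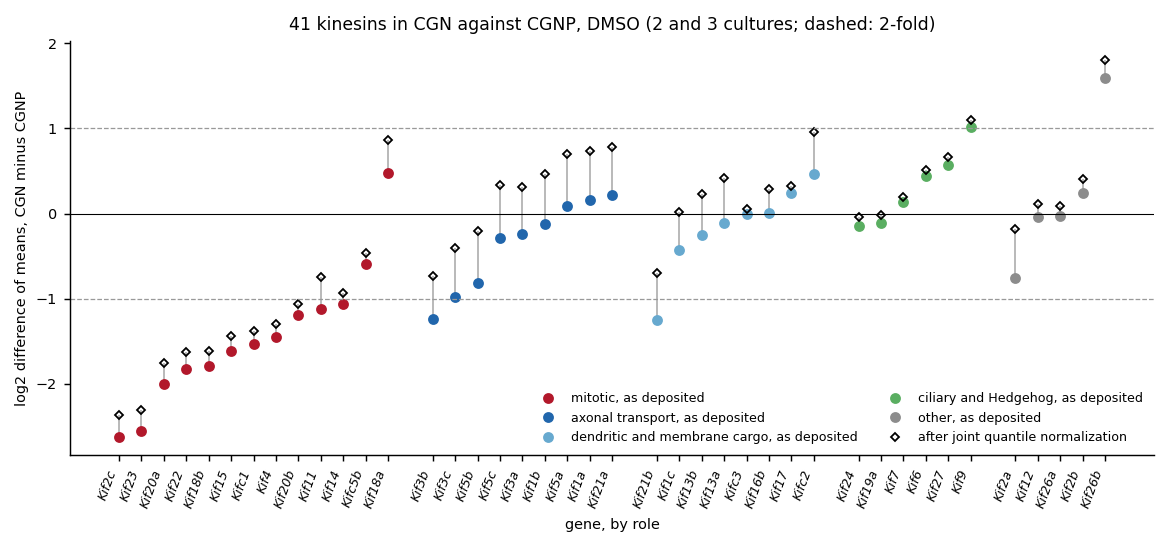
Difference of mean log2 signal, CGN minus CGNP with DMSO (n = 2 and 3 cultures), for 41 kinesins by role (filled circles: as deposited; open diamonds: after joint quantile normalization; dashed lines: 2-fold). All mitotic kinesins but *Kif18a* lie below 0 under both, while 3 axonal transport kinesins, *Kif1b*, *Kif3a* and *Kif5c*, change sign with the normalization.

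Among the mitotic kinesins *Kif2c* stood at 4.71 and 4.57 in CGN, against 7.09, 7.04 and 7.66 in CGNP, a difference of -2.62 as deposited and -2.37 after joint normalization. *Kif23* stood at 4.73 and 5.04 in CGN and 7.44, 7.31 and 7.56 in CGNP (-2.55 and -2.31). The CGN means of *Kif2c* (4.64), *Kif4* (4.58), *Kif18b* (4.47), *Kifc1* (4.27) and *Kif14* (4.01) lay at or under the array medians of all 34472 clusters, 4.64 to 4.70. Those of *Kif15* (4.82) and *Kif23* (4.88) lay just above them. The median of the 22180 genes was higher, and *Kif20b* (5.02) fell below it on 3 of 16 arrays and *Kif20a* (5.16) on 2, all of CGN. A probe set reads little above background there, so the differences of all these genes are limits that may understate the size, and they have no order among them. *Kif20a* differed by -2.00, *Kif22* by -1.83, *Kif18b* by -1.79, *Kif15* by -1.61, *Kifc1* by -1.53, *Kif4* by -1.45 and *Kif20b* by -1.20 as deposited, each by over 1 in size after joint normalization as well. *Kif14* (-1.06 as deposited, -0.93 jointly) and *Kif11* (-1.12 and -0.74) lost the 2-fold count there. *Kif11* stayed well measured in CGN, at 6.22 and 6.54, against 7.73, 6.97 and 7.79 in CGNP. *Kif18a* was the exception again, at 7.23 and 6.81 in CGN and 6.38, 6.42 and 6.83 in CGNP, a difference of 0.48 as deposited with 1 CGNP value inside the CGN range by 0.02, and of 0.86 without overlap after joint normalization. As deposited, its CGN values with SGC0946, 5.76 and 5.54, were below every CGNP value with DMSO. This crosses experiments normalized apart, and jointly normalized values are not given for it.

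Among axonal transport kinesins *Kif21a*, *Kif1a* and *Kif5a* were higher in CGN under both normalizations, by 0.22, 0.16 and 0.09 as deposited and by 0.78, 0.74 and 0.70 jointly. *Kif3b* (7.32 and 7.23 in CGN, against 8.49, 8.49 and 8.58 in CGNP), *Kif3c* (9.01 and 9.06, against 10.00, 9.99 and 10.05) and *Kif5b*, the ubiquitous heavy chain (9.93 and 9.93, against 10.64, 10.74 and 10.87), were lower under both, by -1.24, -0.98 and -0.82 as deposited and -0.73, -0.41 and -0.21 jointly. Of the other kinesins 3 met the 2-fold count as deposited, 1 of 8 cargo kinesins lower and 1 of 6 ciliary and 1 of 5 others higher. Over all genes 11.2% were lower and 2.75% higher by this count. *Kif26b*, an atypical kinesin without motor activity that acts in cell adhesion and migration, was higher, at 6.02 and 6.69 in CGN, against 4.75, 4.47 and 5.07 in CGNP (1.59 and 1.81 jointly). *Kif9* was higher at 5.07 and 5.56, against 4.28, 4.36 and 4.25 (1.02 and 1.11), and *Kif21b* lower at 8.98 and 8.93, against 10.11, 10.26 and 10.27 (-1.26 and -0.69). All 12 mitotic partners were at least 2-fold lower in CGN without overlap as deposited and 11 after joint normalization, as were, under both, *Mki67*, *Top2a* and *Ccnd2*. Of Purkinje cell markers 3 of 3 and of mural and fibroblast markers 4 of 5 were higher in CGN, with list medians of 2.23 and 0.88, so the cultures also differed in their other cells, whose part was not tested.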

How the data were processed

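Total RNA was hybridized to Affymetrix arrays, biotin labelled. Per the labels, the authors used Partek (version not given in the sources used here), where signals were adjusted for probe sequence and GC content, background corrected by RMA, quantile normalized and summarised by median polish. Values as deposited by the authors are log2 signals per transcript cluster. The authors' tables of comparisons hold fold changes and p-values of their own and were not used. Of 34472 clusters 23521 had 1 gene symbol, and 22180 genes were each represented by their brightest cluster, with no filter on dim genes. Sorted values differed by 0.193 to 0.452 between experiments and by 0.0084 to 0.0763 within them. Levels were therefore not tested across experiments, whereas differences of responses between experiments were.

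Contrasts were fitted in limma 3.58.1 under R 4.3.3 (lmFit, then eBayes with an intensity trend, two-sided), separately for the 6 cerebella and the 10 culture arrays, with Benjamini-Hochberg adjustment over all genes. The difference of responses between CGN and CGNP came from the fit of the 10 culture arrays. Those between cerebella and CGNP or CGN came from a fit of all 16 arrays. The procedure was tested on simulated data. Mitotic and axonal transport kinesins were named where groups did not overlap or at an unadjusted p of at most 0.05. Other kinesins were named at that cut-off or at least 2-fold apart without overlap between CGN and CGNP. Some further members were named too, and an unnamed kinesin need not have overlapping groups. Of partner lists up to 4 genes with the smallest p were named. Members, lists and motifs were chosen with earlier results of these data known. CGNP numbers pair the cultures because the labels give the same mice; correlations of same-numbered deviations were 0.013, 0.035 and 0.0096. Alternatives were a further quantile normalization, subtraction of array medians, a filter on dim genes, the mean of a gene's clusters, ordinary variances, no trend, 1 fit of 16 arrays, each array left out, and joint normalization. The number of arrays limits the precision.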

Additional observations from a re-analysis of the deposited data

How the results depend on the processing

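The direction of the mitotic median in cerebella (-0.40) held under each alternative, from -0.49 to -0.30 with 1 mouse left out. The number of mitotic kinesins lower at an unadjusted p of at most 0.05, 8 of 13, was 12 after subtraction of array medians, 5 with ordinary variances and 5 in a fit of 16 arrays, and 4 to 10 with 1 mouse left out. The axonal median in cerebella (0.10) was 0.015 after subtraction of array medians and 0.023 to 0.13 with 1 mouse left out. In CGNP the mitotic count was 0 to 1 and in CGN 1 to 2 with 1 culture left out, and 2 in CGN with ordinary variances. The axonal median in CGN ranged from -0.13 to 0.047 with 1 culture left out. *Kif18a* in CGN kept its log2 change of -1.37 with the mean of a gene's clusters (limma adjusted p = 0.0509), ordinary variances (0.251) and no trend (0.0529), where the call was lost by adjusted p alone; with 1 culture left out it was -1.58 to -1.16 (adjusted p = 0.0651 to 0.333). Between CGN and CGNP with DMSO the mitotic median (-1.53) was -1.38 after joint quantile normalization and -1.80 to -1.41 with 1 culture left out; the axonal median (-0.24) was 0.34 after joint normalization, -0.17 after subtraction of array medians and -0.29 to -0.18 with 1 culture left out. With the replicate block for the paired CGNP cultures, 10 genes passed in limma instead of 7, the mitotic median stayed at 0.02, and no kinesin changed its call. The causes of these shifts were not tested. Kinesins below the array median of the 22180 genes, *Kifc5b*, *Kif2b*, *Kif12*, *Kif26a* and *Kif27* on all 16 arrays, can show little of a change.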

Other observations

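The CGN array HB2, titled DMSO and described as SGC0946, read 7.16 for *Kif18a*, and HB5, titled SGC0946 and described as DMSO, read 5.87. The same arrays read 5.08 and 4.81 for *Kif23* and 4.33 and 4.49 for *Kif2c*. Second clusters of *Kif5b*, *Kif7* and *Kif27* differed from the brightest by level, and in cKO minus control cerebella they gave -0.15, 0.24 and -0.12, where the brightest clusters gave 0.05, -0.25 and 0.29. For these 3 genes the sign in cerebella thus depended on the cluster.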
